A study of Mus musculus with 4 samples.

Results

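Expression of 10 transcription factors that pattern the thalamus, the zona limitans and the hypothalamus was read as a check of tissue from outside the cortex: Tcf7l2, Gbx2, Lhx9, Olig3, Barhl2, Irx1, Irx2, Irx3, Otp and Sim1. They were taken by gene name, and each matched 1 row, so the group is 10 of 20421 genes in the table. RNA was sequenced from brain of C57BL/6 mice at day 15 of embryonic life, with the genotype labelled FOXM1f/+;Nestin-Cre or WT. FOXM1 is a forkhead transcription factor of the later cell cycle, the series' title names the human gene, and Nestin-Cre is a recombinase driver that works in the progenitors of neurons and glia. The labels list 2 samples of each genotype, but the table holds 1 column of reads for each, tagged F1 and C2, which match no sample title, with no word on pooling, and the columns are named the FOXM1-Cre library and the WT library here. Both WT samples carry an allele in their title, nestin in 1 and foxm1 in the other, so the WT column may hold an animal with either allele.

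The diencephalon lies between the telencephalon, which makes the cortex, and the midbrain. Its thalamus relays sensory input to the cortex, its hypothalamus makes hormone-releasing neurons, and a narrow signalling ridge, the zona limitans intrathalamica, divides thalamus from prethalamus. Transcription factors switched on in bands give each territory its identity, and several of these factors are little used in the cortex.

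The FOXM1-Cre library held 17856653 reads and the WT library 17543705. With 1 library each there is no spread between animals and no test, and every interval below is a 95% exact interval that covers counting error only. Xist had 9628 reads in the FOXM1-Cre library and 5 in the WT library, while Uty, Ddx3y, Kdm5d and Eif2s3y, all 4 on the Y chromosome, were at 0 reads in the FOXM1-Cre library and at 202 to 1266 in the WT library, so genotype and sex content cannot be told apart. The choroid plexus list had 8 of 9 genes measured, none at 0, and summed to 25.0 CPM (reads scaled to the library total) in the FOXM1-Cre library and 708 CPM in the WT library. Its part in the results below was not tested. In such whole-tissue libraries fewer cells of a type and less RNA per cell cannot be told apart.

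One of the 10 factors differed by more than counting error: Lhx9 was 1.70-fold higher in the FOXM1-Cre library (1.46 to 1.98). The intervals of the other 9 spanned 1, and none lay below it. Over all 20421 genes, 12.7% of intervals lay above 1 and 15.7% below it, so 1 of 10 is near the background share. A minimum of 1 CPM on average kept 14557 genes, of which 2.35% differed at least 2-fold, and no factor was among these. Ratios were above 1 for 5 factors and below 1 for 5, with a median log2 ratio of 0.04, beside -0.03 over the 20073 genes with reads in both libraries. The 10 genes summed to 1075 reads (60.2 CPM) in the FOXM1-Cre library and 838 reads (47.8 CPM) in the WT library. Without Lhx9 the sums were 589 reads (33.0 CPM) in the FOXM1-Cre library and 557 reads (31.7 CPM) in the WT library.

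**Figure D1:**
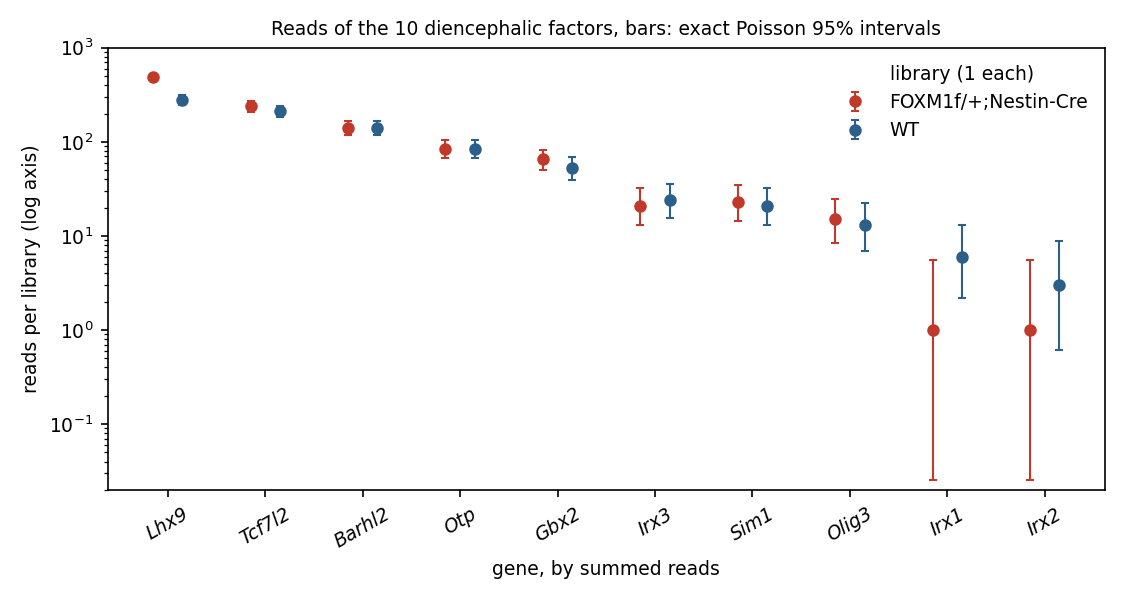
Reads per library (log axis) of the 10 factors, ordered by summed reads, with the FOXM1-Cre (FOXM1f/+;Nestin-Cre) library in red left of the WT library in blue. Bars are exact Poisson 95% intervals. Lhx9 is the 1 gene whose intervals are apart (486 reads in the FOXM1-Cre and 281 in the WT library), and Irx1 and Irx2 lie at 6 reads or fewer.

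Of the 4 factors of thalamic territory, Lhx9 alone differed beyond counting error. Lhx9 (ENSMUSG00000019230, chromosome 1, 138825186 to 138848577, minus strand, GRCm38) is a LIM-homeodomain factor of thalamic and pretectal neurons and of the embryonic gonad. It had 486 reads in the FOXM1-Cre library and 281 in the WT library, or 27.2 and 16.0 CPM, and its Poisson intervals (444 to 531 and 249 to 316 reads) did not overlap. Of the 14557 genes above the minimum, 186 (1.28%) had a larger ratio than Lhx9. Lhx9 gave 45.2% of the 10 genes' reads in the FOXM1-Cre library and 33.5% in the WT library. The tissue that the Lhx9 reads came from was not tested.

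Tcf7l2 (ENSMUSG00000024985, chromosome 19, 55741810 to 55933654, plus strand) carries Wnt signals to DNA by binding beta-catenin and marks thalamic and habenular neurons. It had 239 reads in the FOXM1-Cre library and 212 in the WT library, a ratio of 1.11 (0.917 to 1.34). Gbx2 (ENSMUSG00000034486, chromosome 1, 89927956 to 89931179, minus strand), a homeobox gene needed for thalamic neurons and for the axons they send to the cortex, had 65 reads in the FOXM1-Cre library and 53 in the WT library, a ratio of 1.20 (0.825 to 1.77). Both sat slightly higher in the FOXM1-Cre library, within counting error. The Gbx2 value is uncertain for a further reason: D130058E05Rik, on the opposite strand, shares 946 exon bases with it, no source used here gives the strand setting, and that gene had 1 read in the FOXM1-Cre library and 6 in the WT library. Olig3 (ENSMUSG00000045591, chromosome 10, 19356533 to 19358604, plus strand), a bHLH factor of thalamic progenitors, had 15 reads in the FOXM1-Cre library and 13 in the WT library. Its ratio of 1.13 had an interval from 0.503 to 2.59, so a 2-fold difference either way would hardly be detectable at this depth.

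The promoters of the 2 best-covered factors are shown because the genotype concerns a forkhead factor. Each runs from 250 bases before to 50 bases after a RefSeq start (GRCm38.p6). Capitals mark the exact forkhead letters TAAACA on either strand, and variants of them were not searched. The Lhx9 window is chr1:138842395-138842694 on the minus strand, inside the table's span of the gene, and the Tcf7l2 window is chr19:55741560-55741859 on the plus strand.
Lhx9: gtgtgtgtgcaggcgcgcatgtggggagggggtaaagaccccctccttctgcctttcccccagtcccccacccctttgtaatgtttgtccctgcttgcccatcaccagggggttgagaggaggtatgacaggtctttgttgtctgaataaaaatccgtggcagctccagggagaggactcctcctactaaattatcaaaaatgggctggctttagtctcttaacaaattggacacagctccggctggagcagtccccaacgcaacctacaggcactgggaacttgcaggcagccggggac
Tcf7l2: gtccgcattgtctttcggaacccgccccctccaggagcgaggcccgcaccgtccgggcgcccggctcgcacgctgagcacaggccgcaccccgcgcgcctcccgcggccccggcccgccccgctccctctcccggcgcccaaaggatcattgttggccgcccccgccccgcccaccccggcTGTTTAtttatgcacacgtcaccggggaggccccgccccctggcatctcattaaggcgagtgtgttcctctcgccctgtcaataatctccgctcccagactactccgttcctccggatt
RefSeq windows were found for 9 of the 10 genes, with 10 entries in all. The further entry is another Tcf7l2 window, chr19:55895071-55895370. The forkhead letters TAAACA, read on both strands, occurred in the Tcf7l2 window shown alone, starting at -69. The other Tcf7l2 window held none, and 13.4% of 32851 such windows held them. TTTGAA or TTCGAA, letters of the cell cycle homology region through which FOXM1 can reach mitotic genes, were in none of the 9 genes' windows and in 19.2% of all windows. CTTTGA, letters bound by the TCF family of Tcf7l2, were likewise in none and in 16.0% of all windows. CTTTGA followed by A would also hold TTTGAA. A match is a description of letters and not a site.

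**Figure D2:**
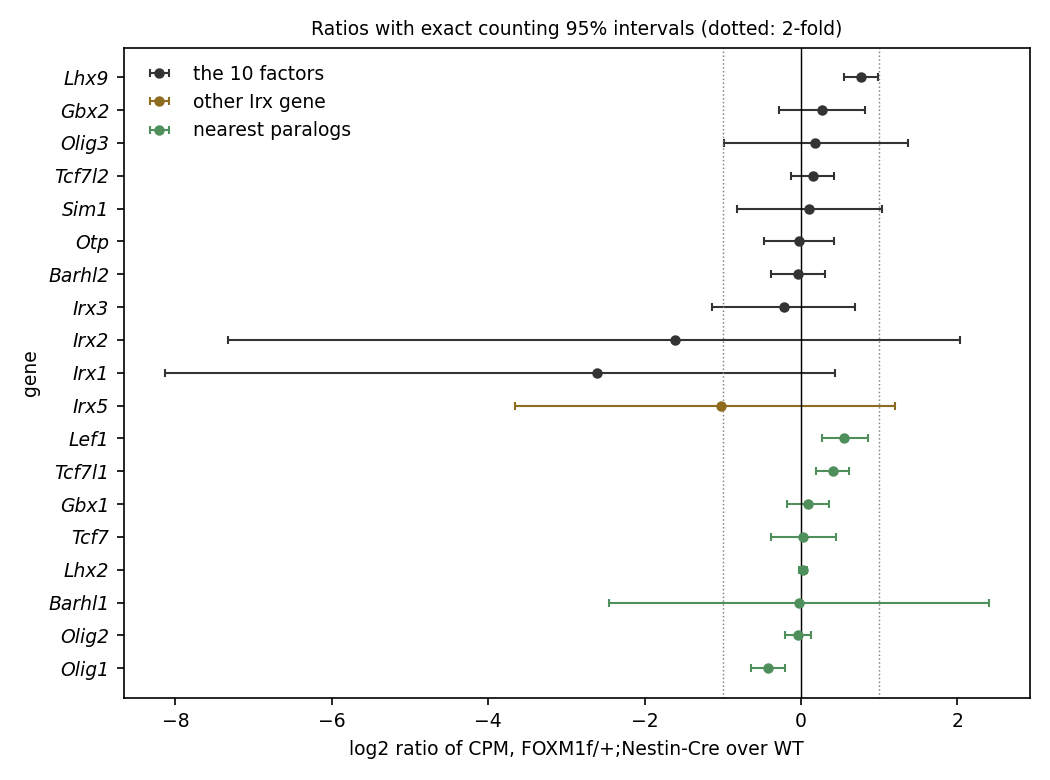
Log2 ratio of CPM, FOXM1f/+;Nestin-Cre over WT, for the 10 factors (black), Irx5 (brown) and the nearest paralogs (green), with exact counting 95% intervals. Dotted lines mark 2-fold. Lhx9, Lef1 and Tcf7l1 lie wholly above 0 and Olig1 wholly below, while Irx1, Irx2, Irx5 and Barhl1, each with 6 reads or fewer in a library, have the widest bars.

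Factors of the zona limitans and of band borders showed no difference beyond counting error. Barhl2 (ENSMUSG00000034384, chromosome 5, 106452523 to 106458166, minus strand), a homeobox gene of the diencephalon and retina, had 140 reads in the FOXM1-Cre library and 141 in the WT library, a ratio of 0.976 (0.767 to 1.24). The Iroquois genes encode homeodomain proteins of the TALE class, and Irx3 helps place the zona limitans in chick. Irx3 (ENSMUSG00000031734, chromosome 8, 91798525 to 91802067, minus strand) had 21 reads in the FOXM1-Cre library and 24 in the WT library, a ratio of 0.860 (0.455 to 1.61). It shares 124 exon bases with the antisense gene Irx3os, whose reads were not analysed here.

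The other Iroquois genes were barely read. Irx1 (ENSMUSG00000060969, chromosome 13, 71957921 to 71963723, minus strand) had 1 read in the FOXM1-Cre library and 6 in the WT library, a ratio of 0.164 (0.00356 to 1.35). Irx2 (ENSMUSG00000001504, chromosome 13, 72628820 to 72634198, plus strand) had 1 read in the FOXM1-Cre library and 3 in the WT library, a ratio of 0.328 (0.00624 to 4.08). Irx5, 556 kilobases from Irx3 on chromosome 8, had 3 reads in the FOXM1-Cre library and 6 in the WT library, while Irx4 and Irx6 were not analysed here. The 4 measured Iroquois genes all had fewer reads in the FOXM1-Cre library, 26 against 39 in all, and each single interval spanned 1. Irx3 gave 21 of the 26 and 24 of the 39, and no interval was taken for the sum. Without a minimum of expression, Irx1 and Irx2 passed 2-fold lower, as did 9.53% of all genes, and at 1 read the ratio says little. In the authors' deposited table Lhx9 is marked significant upward and Irx1 downward, Irx1 with a p-value of 0.0452 and an adjusted p-value of 0.0934, and 9.46% of all genes are marked in either direction.

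The hypothalamic factors Otp and Sim1 did not differ beyond counting error. Otp (ENSMUSG00000021685, chromosome 13, 94875602 to 94885130, plus strand) and Sim1 (ENSMUSG00000019913, chromosome 10, 50894754 to 50989152, plus strand) are both needed for the neuroendocrine neurons of the paraventricular nucleus. Otp, a homeobox gene, had 84 reads in each library, a ratio of 0.983 (0.717 to 1.35). Sim1, a bHLH-PAS factor that works as a dimer with Arnt2, had 23 reads in the FOXM1-Cre library and 21 in the WT library. Its ratio was 1.08 (0.569 to 2.04), a wide interval at so few reads. The sign of the Otp difference comes from the library totals alone.

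**Figure D3:**
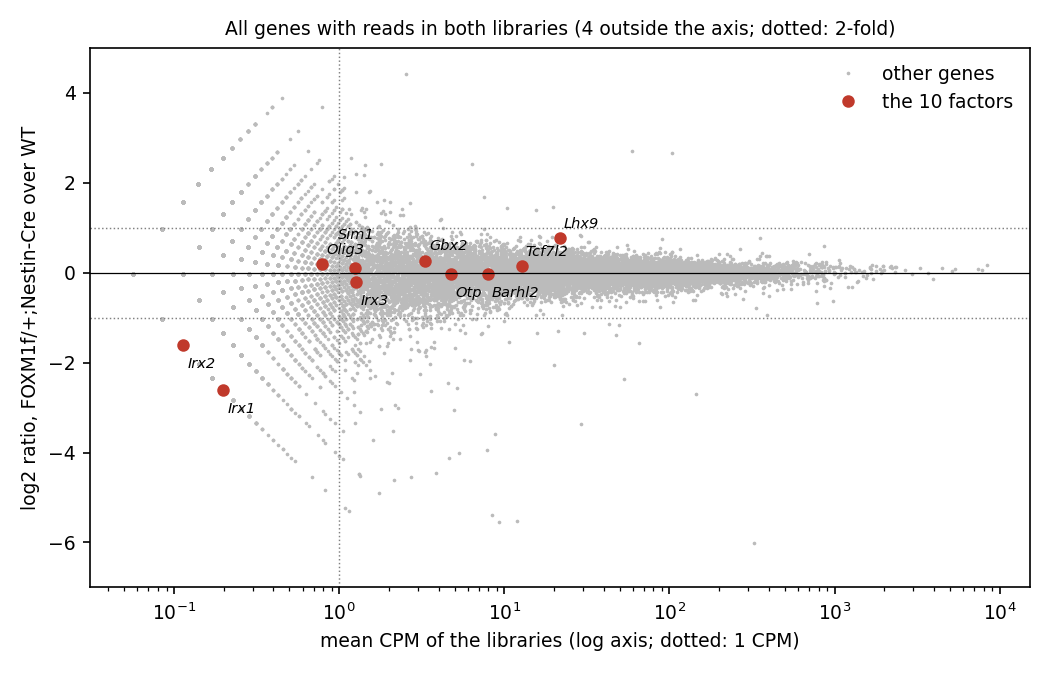
Log2 ratio, FOXM1f/+;Nestin-Cre over WT, against mean CPM (log axis) for all 20073 genes with reads in both libraries (grey) and the 10 factors (red). Dotted lines mark 2-fold and 1 CPM, and 4 genes lie outside the axis. Lhx9, at 0.76, is at the upper edge of genes of like expression, Irx1 and Irx2 lie in the wide fan of genes below 1 CPM, and the other 7 lie near 0.

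Set on a common scale that divides CPM by kilobases of exon (RPKM), the levels of the factors, pooled over both libraries, fell into 5 steps. Barhl2 was at 3.39 RPKM in the FOXM1-Cre library and 3.47 in the WT library. Lhx9 followed, at 2.87 RPKM in the FOXM1-Cre library and 1.69 in the WT library. Otp, Gbx2 and Tcf7l2 lay together at 1.53 to 1.67 RPKM in the FOXM1-Cre library and 1.38 to 1.66 in the WT library, and over both libraries each overlapped its neighbour within counting error. Irx3 and Olig3 were at 0.426 and 0.405 RPKM in the FOXM1-Cre library, against 0.495 and 0.358 in the WT library, also overlapping. Sim1, Irx1 and Irx2 were at 0.149, 0.0214 and 0.0171 RPKM in the FOXM1-Cre library and 0.139, 0.131 and 0.0521 in the WT library, and over both libraries Sim1 and Irx1, and Irx1 and Irx2, overlapped. Within a single library the upper steps ran together: the counting intervals of Barhl2 and Lhx9 overlapped in the FOXM1-Cre library, and those of Lhx9 and Otp overlapped in the WT library. The top of the order also depends on transcript length. With the longest transcript in place of all exons, Lhx9 came first at 4.39 RPKM over both libraries, and Barhl2 and Tcf7l2 followed at 3.43 each.

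Against telencephalic genes these levels were low. All 12 telencephalic genes were measured, with medians of 61.6 RPKM in the FOXM1-Cre library and 56.2 in the WT library, while the 10 factors had a median of 0.975 RPKM in the FOXM1-Cre library and 0.936 in the WT library. On the list of 17 midbrain and hindbrain genes, 4 had values. They were at 5 to 10 reads in the FOXM1-Cre library and 1 to 9 in the WT library. Pax5 and Fgf8, both genes of the midbrain-hindbrain border, had 10 and 5 reads in the FOXM1-Cre library and 7 and 9 in the WT library. The other 13 genes of that list, among them En1, En2 and Hoxb4, were not analysed here. The libraries thus held few reads of the 4 measured genes, and the share of midbrain and hindbrain tissue was not tested.

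**Figure D4:**
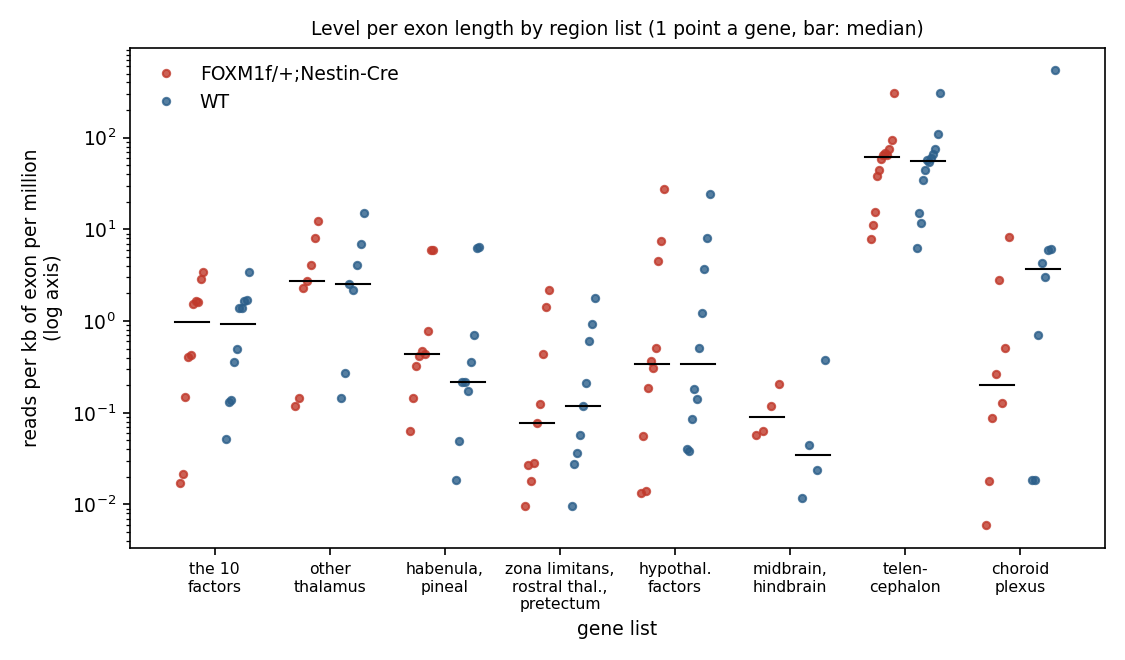
Level per exon length (RPKM, log axis) of each measured gene in 8 region lists, with the FOXM1-Cre library in red left of the WT library in blue. Black bars are medians over genes. Telencephalic genes have medians of 61.6 RPKM in the FOXM1-Cre and 56.2 in the WT library. The 10 factors have 0.975 in the FOXM1-Cre and 0.936 in the WT library. The choroid plexus list has medians of 0.198 in the FOXM1-Cre and 3.68 in the WT library. Some genes of few reads in other lists, such as Irx1, also lie apart.

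The nearest relatives of the factors did not share one direction. Of 9 paralogs, 8 were measured, with 2 intervals above 1, 1 below and 5 spanning it, and a median log2 ratio of 0.03. Within the TCF family, Lef1 had 244 reads in the FOXM1-Cre library and 163 in the WT library, which is 1.47-fold higher in the FOXM1-Cre library (1.20 to 1.80). Tcf7l1 had 420 reads in the FOXM1-Cre library and 312 in the WT library, which is 1.32-fold higher in the FOXM1-Cre library (1.14 to 1.54). Tcf7 had 102 reads in the FOXM1-Cre library and 98 in the WT library, so with Tcf7l2 the family held 2 members higher beyond counting error and 2 that were not. Lhx2, the closest relative of Lhx9 and a selector gene of the cortex, had 6405 reads in the FOXM1-Cre library and 6206 in the WT library, a ratio of 1.01 (0.979 to 1.05), whose interval does not overlap that of Lhx9. Olig1, a gene of oligodendrocyte precursors, had 311 reads in the FOXM1-Cre library and 410 in the WT library, which is 1.34-fold lower in the FOXM1-Cre library (1.16 to 1.56). Olig2 had 587 reads in the FOXM1-Cre library and 591 in the WT library, and Gbx1 had 242 in the FOXM1-Cre library and 224 in the WT library. Barhl1 had 4 reads in each library, and Sim2 was not analysed here.

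Binding partners and co-acting factors of Tcf7l2, Lhx9 and Sim1 were abundant, with a median log2 ratio of -0.02. Of their 9 intervals, 3 lay above 1, 3 below and 3 spanned it. Each had at least 741 reads in the FOXM1-Cre library and 675 in the WT library, where small ratios can exceed counting error. Among the 14557 genes kept by the 1 CPM minimum, 2398 intervals lay above 1 and 2801 below. Ctnnb1, beta-catenin, the partner of Tcf7l2, had 546 CPM in the FOXM1-Cre library and 522 in the WT library, a ratio of 1.05 (1.02 to 1.08). Ldb1, which bridges LIM-homeodomain proteins such as Lhx9, had a ratio of 1.06 (1.03 to 1.09). Arnt2, the dimer partner of Sim1, had 214 CPM in the FOXM1-Cre library and 242 in the WT library and was 1.13-fold lower (1.08 to 1.18). Pou3f2, which acts downstream of Sim1 in the hypothalamus, was 1.17-fold lower (1.10 to 1.25).

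Other genes of the thalamus were mixed. All 7 were measured, with 2 intervals above 1, 3 below and 2 spanning it, and a median log2 ratio of -0.16. Prox1, a homeobox gene, had 409 reads in the FOXM1-Cre library and 320 in the WT library, and Slc17a6, the vesicular glutamate transporter of thalamic neurons, 768 in the FOXM1-Cre library and 655 in the WT library. The nuclear receptor Rora, by contrast, had 34 reads in the FOXM1-Cre library and 62 in the WT library, which is 1.86-fold lower in the FOXM1-Cre library (1.20 to 2.91), and the calcium-binding protein Calb2 had 388 in the FOXM1-Cre library and 463 in the WT library. Several of these genes are also used in the telencephalon.

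In the habenula and pineal, 9 of 10 genes were measured, with 1 interval above 1 and none below. The median log2 ratio was 0.56 over the 9 genes, 0.04 over the 4 whose mean reached 1 CPM, and -0.07 over the 3 that did so in both libraries. Chrnb4, a nicotinic receptor subunit of the habenula, had 28 reads in the FOXM1-Cre library and 14 in the WT library, and its interval barely left 1. Of 9 genes of the zona limitans, rostral thalamus and pretectum, 1 interval lay above 1 and none below. The median log2 ratio was -0.49 over the 9 genes, 6 of them below a mean of 1 CPM, and 0.30 over the 3 above it. The gene with the interval above 1 was Shh, the signal of the zona limitans, with 73 reads in the FOXM1-Cre library and 46 in the WT library, which is 1.56-fold higher in the FOXM1-Cre library (1.06 to 2.31). Shh is also made in the ventral telencephalon.

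Hypothalamic transcription factors were measured for 10 of 13 genes, with 2 intervals above 1, 1 below and a median log2 ratio of -0.03, or 0.04 over the 5 with a mean of at least 1 CPM. Nkx2-1, which also marks the medial ganglionic eminence of the telencephalon, had 1390 reads in the FOXM1-Cre library and 1219 in the WT library, a ratio of 1.12 (1.04 to 1.21). Hmx2 had 21 reads in the FOXM1-Cre library and 8 in the WT library. Lmx1a, which also marks the cortical hem and the choroid plexus, had 31 reads in the FOXM1-Cre library and 73 in the WT library. Lmx1a was thus 2.40-fold lower in the FOXM1-Cre library (1.55 to 3.78), beside the lower sum of the choroid plexus list given above. Among 9 measured of 12 hypothalamic neuropeptides 1 interval lay below 1 and none above. The median log2 ratio was 0.39 over the 9 genes and -0.13 over the 4 whose mean reached 1 CPM, so its sign turned with the expression minimum. That was Sst, which is also made by cortical interneurons, at 2239 reads in the FOXM1-Cre library and 2397 in the WT library.

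The thalamic eminence, at the border with the telencephalon, is a source of Cajal-Retzius cells. Genes of these cells and of the eminence had 3 of 6 intervals above 1 and none below, with a median log2 ratio of 0.24. All 6 had a mean of at least 1 CPM, where 2398 of 14557 genes had intervals above 1 and 2801 below. Among the 3 genes above 1 were the LIM-homeodomain genes Lhx1 and Lhx5, of the same family as Lhx9. Lhx1 had 131 reads in the FOXM1-Cre library and 89 in the WT library, a ratio of 1.45 (1.10 to 1.91), and Lhx5 had 330 in the FOXM1-Cre library and 267 in the WT library, a ratio of 1.21 (1.03 to 1.43). Ebf3, a helix-loop-helix factor of these cells, had 241 reads in the FOXM1-Cre library and 193 in the WT library. Trp73 and Reln, which mark Cajal-Retzius cells themselves, did not differ beyond counting error. Trp73 had 520 reads in the FOXM1-Cre library and 556 in the WT library, a ratio of 0.919 (0.814 to 1.04), and Reln had 3792 in the FOXM1-Cre library and 3799 in the WT library, a ratio of 0.981 (0.937 to 1.03). The summed level of the 6 genes was 283 CPM in the FOXM1-Cre library and 282 in the WT library, most of it from Reln, and the part of such cells in the Lhx9 value was not tested.

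Within the choroid plexus list, 5 of 8 intervals lay below 1 and none above. Ttr, the thyroid hormone carrier, had 177 reads in the FOXM1-Cre library and 11255 in the WT library, while Otx2, which the plexus shares with diencephalon and midbrain, had 211 in the FOXM1-Cre library and 223 in the WT library. The eye list had 4 of 5 genes measured, at 3 to 26 reads in the FOXM1-Cre library and 4 to 43 in the WT library, with Mitf and Pmel below 1. Barhl2, which the retina also uses, did not differ from 1 beyond counting error.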

How the data were processed

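Total RNA was taken from embryonic brain with Trizol, per the labels' protocols. The submitters' processing notes name HTSeq 0.6.0, TopHat2 2.0.12, Bowtie2 2.2.3 and the mm9 build. The coordinates match GRCm38 instead: 91.6% of 20388 identifiers found in GENCODE M21 had the same chromosome, start and end. No source used here gives the strand setting or the handling of reads that map to several places.

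The deposited table gives, per the file headers, raw read counts and normalized values for 1 column per genotype. The authors' normalized values are CPM, with 0 reads entered as 0.5, and the authors' fold ratio and log2 ratio are FOXM1f/+;Nestin-Cre over WT. No source used here names the test behind the authors' p-values.

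CPM were recomputed from the totals behind the authors' CPM (17859653 and 17547268 reads). Ratios have exact conditional (Clopper-Pearson) intervals and reads exact Poisson intervals, at 95%. Without molecular identifiers, reads are not independent molecules, and these intervals cover counting error only. Exon lengths came from GENCODE M21 and promoters from RefSeq. The members and the gene lists were chosen with earlier results of these data known. All 10 factors, the Iroquois genes and paralogs are named; of other lists, up to 4 genes whose interval excludes 1, by size relative to counting error, otherwise 2 of highest CPM, and further genes beside results they move with. En1, En2, Hoxb4, Reln and Trp73 were named outside that rule. A further gene is not reported here. Python 3.11.15, SciPy 1.17.1, edgeR 4.0.16 and DESeq2 1.42.0 (scaling factors alone) were used. The intervals were tried on simulated Poisson counts, which hold counting error alone, so that trial says nothing of the spread between animals.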

Additional observations from a re-analysis of the deposited data

How the results depend on the processing

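The call for Lhx9, an interval above 1, held under scaling by TMM and by RLE factors (log2 ratios of 0.78 and 0.79, beside 0.76). The other 9 intervals spanned 1 under both. These settings could hardly move a ratio: the TMM factors were 0.994 in the FOXM1-Cre library and 1.006 in the WT library. The RLE factors were 1 in both, so that setting compared raw reads. At 1.5-fold in place of 2-fold, 1 factor was called higher, and by a counting interval on one side of 1 it was 1 as well; that factor is Lhx9. With no expression minimum, 2 factors were called lower, Irx1 and Irx2.

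Over all genes, 76 higher and 266 lower genes at 2-fold became 975 and 1946 with no expression minimum, 25 and 108 where each library had to reach 1 CPM, and 6 and 20 where the mean had to reach 10 CPM. They became 369 and 762 at 1.5-fold, and 2398 and 2801 by a counting interval on one side of 1. The median log2 ratio over factors with a mean of at least 1 CPM was 0.11, and 0.46 at the minimum of 10 CPM, where 2 factors were left. No paired analysis was possible because each genotype has 1 column, and the column tags F1 and C2 share no number and match no sample title, and for the same reason leaving out replicates was not run. Depth limits the factors below 1 CPM (Olig3, Irx1 and Irx2), and also Sim1 and Irx3, at means of 1.24 and 1.27 CPM. No value here measures the spread between animals.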

Other observations

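Homeobox genes, the largest class among the factors, were looked at as a group by the protein family name that the table gives each gene. That name does not pick every homeobox gene: Prox1 and Otx2 are not among these rows. The counts here thus cover the rows so named and not all homeobox genes. Of 78 such rows 7 are among the 10 factors, 49 had a mean of at least 1 CPM, 15 had intervals above 1 and 9 below, where 12.7% of all genes lay above and 15.7% below. The 3 such rows past 2-fold with a mean of at least 1 CPM, Prrx2, Msx1 and Lmx1a, were all lower in the FOXM1-Cre library. Lhx9 ranked below 27 of the 78 in level per exon length. Otx1, a homeobox gene of cortical progenitors, had 899 reads in the FOXM1-Cre library and 630 in the WT library, a ratio of 1.40 (1.26 to 1.55). Msx1, of the hem and roof plate, had 25 reads in the FOXM1-Cre library and 82 in the WT library. Prrx2 had 18 reads in the FOXM1-Cre library and 52 in the WT library. Otx1, Msx1 and Prrx2 were named after their values were seen.

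The mark on Irx1 in the authors' deposited table belongs to a pattern of reads that many genes share. Of the 55 genes with 1 read in the FOXM1-Cre library and 6 in the WT library, 55 are marked significant in the authors' deposited table. Over the 1931 genes marked there, 482 had an exact counting interval that spanned 1, and the fewest reads of a marked gene, both libraries summed, were 5.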
